A study of Mus musculus with 5 samples.

Results

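Matrix metalloproteases, their tissue inhibitors and the membrane proteases that release surface proteins are described here in mouse peritoneal macrophages with and without c-Jun. The 10 genes are Mmp8, Mmp9, Mmp12, Mmp13, Mmp14, Mmp19, Timp1, Timp2, Adam8 and Adam17. They were taken by symbol, through the transcript accession of every array spot that is not a control, and all 10 were found among 21154 symbols on the array, with 13 of its 55681 probes. RNA came from cells washed from the peritoneal cavity of mice aged 8 weeks, plated overnight and freed of floating cells, and was hybridised to 1-colour arrays, 1 array per sample. The wild-type group had 3 arrays, numbered 5, 11 and 14, from littermates on a 129/C57Bl6 background. The c-Jun-deleted group had 2 arrays, numbered 1 and 9, with the genotype cJunfl/fl LysMCre-/+ and the title c-JunΔLysM, while the source names of the same samples give c-JunΔMx. LysM-Cre is known as a recombinase placed in the Lyz2 gene that acts in macrophages and granulocytes; which line was used is not settled by these labels, and c-Jun in other cells on the dish was not measured.

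Matrix metalloproteases are zinc enzymes that are made with an inhibitory propeptide and, once it is removed, cut collagens, elastin and other proteins outside the cell. TIMPs bind their active site, and ADAM proteases sit in the membrane, where Adam17 sheds Tnf and growth factors from the cell surface. Macrophages make several of these enzymes, and some metalloprotease promoters are textbook targets of AP-1, the dimer that contains c-Jun.

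AP-1 binds the letters TGACTCA, which read TGAGTCA on the other strand. They were searched on both strands in RefSeq promoter windows (GRCm38.p6, 250 bases before to 50 after a gene's start), which were at hand for 8 of the 10 genes, all but Mmp9 and Mmp19. A match was found for 2 of these 8, Mmp13 and Mmp12, whereas 5.20% of all 32851 windows and 5.95% of all 27025 genes held one. The related letters TGACGTCA were found in 0 windows of these 8 genes and in 2.03% of all genes. The 100 bases before the start of both matching genes are given below, with the match in capitals, beside those of Mmp8, a collagenase gene of the same chromosome 9 cluster that has no match and differed the other way. All 3 lie on the plus strand and run 5′ to 3′, at chr9:7272414-7272513, chr9:7347274-7347373 and chr9:7558329-7558428 in the order printed.
Mmp13: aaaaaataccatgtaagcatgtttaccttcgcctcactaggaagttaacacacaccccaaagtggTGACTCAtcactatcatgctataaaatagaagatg
Mmp12: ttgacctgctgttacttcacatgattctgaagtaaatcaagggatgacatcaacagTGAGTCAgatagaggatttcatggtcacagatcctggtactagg
Mmp8: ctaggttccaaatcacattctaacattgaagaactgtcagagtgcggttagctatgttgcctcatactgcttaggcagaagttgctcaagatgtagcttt
The match begins 35 bases before the start of Mmp13 and 44 bases before the start of the second of 2 Mmp12 windows; the first Mmp12 window has none. Mmp14, Timp1 and Adam17 also had no match, and all were lower in c-Jun-deleted samples. In the lists of related genes described below, the tested genes with a match were Adam19, Mmp7, Plaur and Mmp3. Adam19 was higher in c-Jun-deleted samples (difference 1.28), and Mmp7 was lower on both c-Jun-deleted arrays than on all wild-type arrays (-0.77). The groups overlapped for Plaur (-0.22) and for Mmp3 (-0.15), the latter well above background on 3 of 5 arrays. A match of letters is a description of the sequence and not evidence of binding.

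Between 52.1% and 59.9% of the probes of an array were well above background. Lyz2, the gene that carries the LysM-Cre recombinase, was at 4.46 on c-Jun-deleted 1 and between 8.52 and 9.18 on the other 4 arrays. The Y-linked gene Ddx3y was well above background on wild-type 11 alone, where it was at 1.35 and Xist, the RNA of the inactive X, at -4.53, while Xist was between -0.04 and 0.74 on the others, so wild-type 11 alone had the pattern of a male and sex was not balanced. All levels are log2 of the signal relative to the 75th percentile of the same array, so a level of 0 equals that percentile. A difference is the c-Jun-deleted mean less the wild-type mean on this scale, from limma, with its standard error (SE). Jun itself was at 3.21, 3.75 and 3.17 in the wild-type samples, against 2.76 and 2.71 in the c-Jun-deleted ones, and whether its probe reads the floxed stretch is unknown, so these values do not check the genotype.

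Most of the metalloprotease genes were lower in the RNA of c-Jun-deleted samples, none of them past the test over all genes. Of the 10 genes 9 had a lower mean, and for 6 of them (Mmp12, Mmp13, Mmp14, Mmp19, Timp1 and Adam17) both c-Jun-deleted arrays lay below all wild-type arrays. Over all 27938 genes tested 61.4% had a lower mean and 20.2% lay below the wild-type range in this way. With a difference of at least 2-fold as well, 5 of the 10 genes and 4.27% of all genes were below the range. The 10 genes were chosen with earlier results of these data known, so a share above that of all genes is a description and no test. The median difference of the 10 genes was -1.15, against -0.09 over all genes. Leaving out c-Jun-deleted 9 gave -0.50, and leaving out c-Jun-deleted 1 gave -1.76. Mmp8 alone was above the wild-type range, where 13.3% of all genes lay, and Mmp9, Timp2 and Adam8 overlapped. With limma and Benjamini-Hochberg adjustment 0 of the 10 genes passed 0.05, nor did any of all genes (0% called), and at an unadjusted p below 0.05 there were 4 of the 10, all lower, against 6.53% of all genes lower by that rule and 12.2% in either direction. Counted by probe, 8 of 13 lay below the range, against 20.5% of all probes. All 10 were well above background on all 5 arrays, so none entered through 1 group only.

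**Figure D1:**
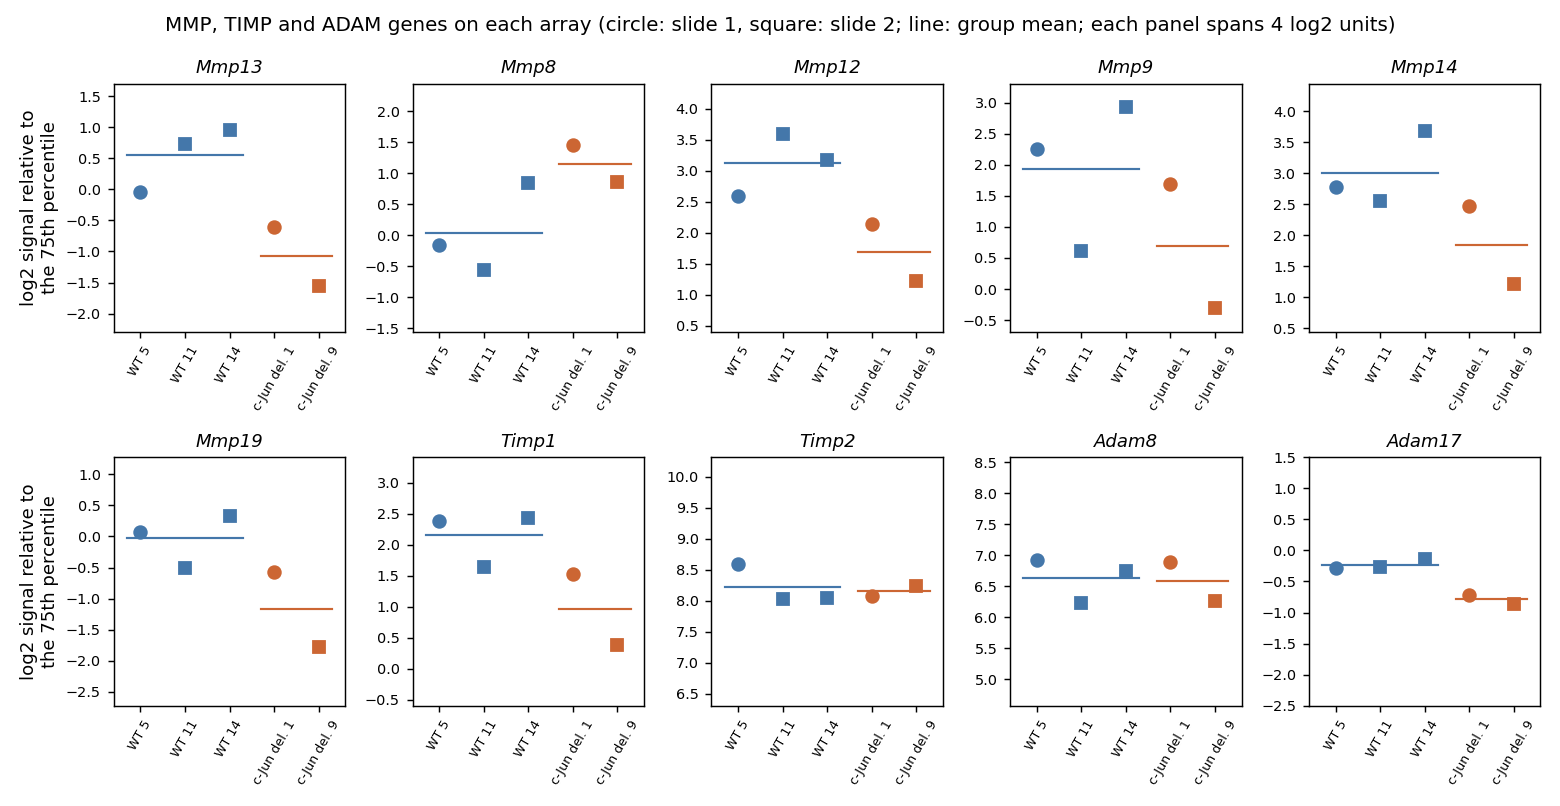
Log2 signal relative to the array's 75th percentile (vertical axis) of the brightest probe of each gene on each of the 5 arrays, blue for wild-type (WT) and orange for c-Jun-deleted, circles for slide 1 and squares for slide 2, with a line at each group mean. For Mmp13, Mmp12, Mmp14, Mmp19, Timp1 and Adam17 both orange points lie below all blue points, and for all of these the lowest point is c-Jun-deleted 9.

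Mmp13, a collagenase that cuts fibrillar collagen, was at -0.04, 0.74 and 0.96 on wild-type 5, 11 and 14, against -0.61 and -1.55 on c-Jun-deleted 1 and 9. The groups were 0.58 apart at their nearest arrays, the widest gap among the 10 genes. The mean was 3.11-fold lower (difference -1.63, SE 0.43, 95% interval -2.76 to -0.51), with an unadjusted p of 0.0139 and a limma adjusted p of 0.296. It was -0.58 within slide 1 and -2.40 within slide 2. Mmp13 is also in the authors' deposited table, where the difference of its group columns is -1.63.

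Mmp8, the collagenase best known from neutrophil granules, went the other way. It was at -0.16, -0.56 and 0.85 in the wild-type samples, against 1.45 and 0.86 in the c-Jun-deleted ones. The lower c-Jun-deleted array and the highest wild-type array, 9 and 14, were only 0.01 apart, so the separation rests on a margin far below the wild-type spread of 0.73 (SD, n = 3). With each array centred on its median in place of the 75th percentile they overlapped, at 4.92 and 4.98. The mean was 2.16-fold higher (difference 1.11, SE 0.48, limma adjusted p = 0.438), and was 1.61 within slide 1 and 0.72 within slide 2.

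Neutrophil markers did not share one direction. Of 14 neutrophil markers on the array 12 were tested, of which 9 were lower, 3 below the wild-type range and 0 above it, with a median difference of -0.39; 61.4% of all genes were lower and 20.2% below the range. The summed level of all 14, in multiples of the 75th percentile signal, was 162 to 177 in wild-type and 157 to 173 in c-Jun-deleted samples. Csf3r, by far the brightest of them, was at 7.26, 7.16 and 7.26 against 7.09 and 7.32. The sum therefore mostly follows Csf3r and says little about the other markers. Prtn3, a neutrophil protease, was at 1.43, 1.23 and 0.52 against -0.03 and -0.20. Mpo, which encodes myeloperoxidase, was at 0.26, -1.97 and -1.31 against -4.72 and -2.39. Higher means with overlapping groups were found for S100a9 (1.23), at -2.64, -2.61 and -4.37 against -4.14 and 0.20, for Retnlg (0.98) and for the elastase gene Elane (0.33). The neutrophil receptor gene Cxcr2 was well above background on 1 of the 5 arrays. The part of neutrophils in the Mmp8 value was not tested.

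Mmp12, the macrophage elastase, was read by a pair of probes. The brighter one was at 2.60, 3.59 and 3.17 in the wild-type samples, against 2.15 and 1.22 in the c-Jun-deleted ones, 2.70-fold lower (difference -1.43, SE 0.42, 95% interval -2.53 to -0.34, limma adjusted p = 0.324). The dimmer one was at -2.58, -2.14 and -2.45 against -3.03 and -4.44 (difference -1.34), the last of these not well above background. Both probes kept the groups apart, and both are in the authors' deposited table, with column differences of -1.43 and -1.34. That table is not independent of the arrays used here. It holds 1709 probes, all at least 2-fold different, and the other 8 genes are not named in it. Of these, Mmp8, Mmp9, Mmp14, Mmp19 and Timp1 also differed by over 2-fold here, so its full rule of choice is unknown. The difference of the brighter probe was -0.45 within slide 1 and -2.16 within slide 2.

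Mmp9, the gelatinase that also cuts basement membrane collagen, varied most from array to array, by 3.24. It was at 2.25, 0.61 and 2.93 in the wild-type samples, against 1.70 and -0.31 in the c-Jun-deleted ones, so wild-type 11 lay below c-Jun-deleted 1 and the groups overlapped. Its probe was spotted 10 times on each array, and the SD among the spots of an array was between 0.03 and 0.104. Spots of an array share 1 labelling and 1 hybridisation, so this covers spot noise only and not the spread between samples, whose SD among the wild-type arrays was 1.19. The difference of -1.24 had an SE of 0.93 and a 95% interval from -3.65 to 1.18 (limma adjusted p = 0.602). Leaving out c-Jun-deleted 9 gave -0.23 and leaving out its partner -2.24, and the difference was -1.90 without wild-type 11 and -0.74 without wild-type 14.

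**Figure D2:**
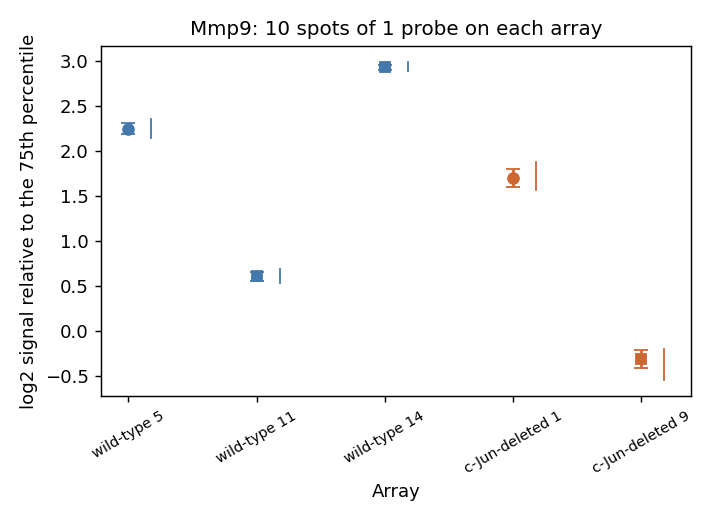
Mean log2 signal relative to the 75th percentile of the 10 Mmp9 spots on each array, with error bars of 1 SD among spots and a thin line beside each from the lowest to the highest spot; blue is wild-type, orange is c-Jun-deleted. The spread among spots, at most 0.104, is small beside the steps between arrays, which reach from -0.31 to 2.93.

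Mmp14, a protease anchored in the membrane that activates pro-Mmp2 and cuts pericellular collagen, was at 2.78, 2.56 and 3.68 in the wild-type samples, against 2.48 and 1.21 in the c-Jun-deleted ones. The groups were 0.08 apart. The mean was 2.24-fold lower (difference -1.16, SE 0.53, limma adjusted p = 0.445). Mmp19, a secreted protease of basement membrane proteins, was at 0.08, -0.50 and 0.33 against -0.57 and -1.78, 0.07 apart and 2.21-fold lower (difference -1.15, SE 0.45, limma adjusted p = 0.417). For both genes c-Jun-deleted 1 lay next to the lowest wild-type array, wild-type 11, and c-Jun-deleted 9 far below. Against the wild-type mean c-Jun-deleted 1 stood at -0.53 for Mmp14 and -0.54 for Mmp19, and c-Jun-deleted 9 at -1.80 and -1.75. Each is also the difference when its partner array is dropped. The groups overlapped for both genes with normexp, an alternative that changed the background correction and also took the raw median spot signal, with an offset of 50, in place of the processed signal.

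The 2 inhibitors differed from each other. Timp1, the inducible TIMP, was at 2.38, 1.64 and 2.43 in the wild-type samples, against 1.53 and 0.38 in the c-Jun-deleted ones, 2.30-fold lower (difference -1.20, SE 0.45, 95% interval -2.36 to -0.04, limma adjusted p = 0.400). The groups were 0.11 apart, and c-Jun-deleted 1 stood at -0.62 and c-Jun-deleted 9 at -1.78 from the wild-type mean. Timp1 is X-linked, and wild-type 11, the array with the male pattern, had the lowest level among the wild-type arrays; the part of sex was not tested. Timp2, which also helps Mmp14 to activate pro-Mmp2, was at 8.59, 8.03 and 8.05 against 8.07 and 8.23, with overlapping groups and a difference of -0.07 (SE 0.23, 95% interval -0.67 to 0.53). Its second probe gave 5.95, 4.90 and 4.86 against 5.33 and 5.46, a difference of 0.16. The interval of the brighter probe leaves room for a change of up to 0.67 downward, so the values do not show that Timp2 was the same in both groups.

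Adam17, also called TACE, the sheddase of Tnf, showed the smallest spread of the 10 genes in wild-type. It was at -0.29, -0.27 and -0.13 in the wild-type samples, against -0.71 and -0.87 in the c-Jun-deleted ones. Here the c-Jun-deleted arrays lay close together, and the groups were 0.42 apart against a wild-type range of 0.16. The mean was 1.47-fold lower (difference -0.56, SE 0.15, 95% interval -0.94 to -0.18), with the lowest unadjusted p of the 10 genes, 0.0134, and a limma adjusted p of 0.295. Its other probe, at -1.07, -1.01 and -0.77 against -1.40 and -1.46, gave -0.48 and also kept the groups apart. Within slide 1 the brighter probe differed by -0.42 and within slide 2 by -0.67. With median centring the difference was -0.34, and c-Jun-deleted 1 and wild-type 5, both at 3.60, no longer separated.

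Adam8, a leukocyte ADAM that can cut adhesion molecules, was at 6.92, 6.23 and 6.75 in the wild-type samples, against 6.89 and 6.26 in the c-Jun-deleted ones. The groups overlapped fully, with a difference of -0.06 (SE 0.31, 95% interval -0.86 to 0.74, limma adjusted p = 0.950).

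**Figure D3:**
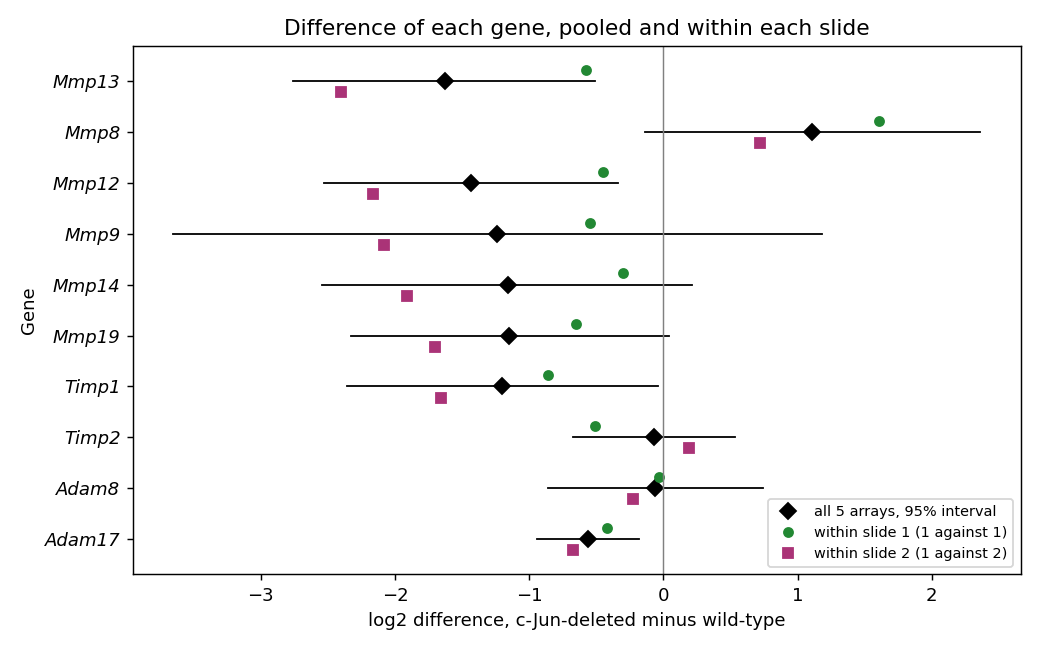
Log2 difference, c-Jun-deleted minus wild-type, of the brightest probe of each gene: diamonds with 95% intervals from all 5 arrays, circles for slide 1 (1 array against 1) and squares for slide 2 (1 c-Jun-deleted array against 2 wild-type arrays). For Mmp13, Mmp12, Mmp9, Mmp14, Mmp19 and Timp1 the slide 2 value is the larger, for example -2.40 against -0.58 for Mmp13, and this holds for Adam17 too, at -0.67 and -0.42.

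The arrays sat on 2 slides, wild-type 5 with c-Jun-deleted 1 on the first and the other 3 arrays on the second, so what belongs to the slide and what to the single c-Jun-deleted mouse on it cannot be told apart. In both slides Mmp9, Mmp12, Mmp13, Mmp14, Mmp19, Timp1 and Adam17 were lower and Mmp8 was higher. Timp2 was at -0.51 within slide 1 and 0.19 within slide 2. With the slide as a block in the fit the difference of Mmp13 was -1.62, of Mmp12 -1.43, of Timp1 -1.31 and of Adam17 -0.56, with limma adjusted p from 0.470 for Timp1 to 0.891 for Timp2 over the 10 genes.

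How many of these genes separate differed between scalings. Quantile normalization left 6 below the wild-type range and 1 above it, as with the 75th percentile. Centring each array on the median of its probes left 2 of the 10 genes below the range, Mmp12 and Mmp13, and 0 above it, and moved the median difference of all genes from -0.09 to 0.13. The median probe lay between 3.86 and 4.30 below the 75th percentile, lowest on c-Jun-deleted 1. Under that centring the median of the 10 genes was -0.93, and Timp2 and Adam8 were at 0.15 and 0.16. With normexp 4 genes were below the range: Mmp12, Mmp13, Timp1 and Adam17.

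Mmp8, Mmp12 and Mmp13 lie in 1 cluster of 10 metalloprotease genes on chromosome 9, in the order Mmp13, Mmp12, Mmp1b, Mmp3, Mmp1a, Mmp10, Mmp8, Mmp27, Mmp20 and Mmp7. All 10 had a promoter window, and 7 held the AP-1 letters, all but Mmp8, Mmp27 and Mmp20. The array reads 9 of them and 5 were tested. Mmp7, matrilysin, at the far end of the cluster from Mmp13, was at -3.59, -3.98 and -3.36 in the wild-type samples, against -4.44 and -4.38 in the c-Jun-deleted ones (difference -0.77, SE 0.22, limma adjusted p = 0.324). Mmp3, stromelysin 1, was at -3.31, -6.55 and -2.28 against -3.67 and -4.73, with overlapping groups and signal well above background on 3 of 5 arrays. Mmp1a, Mmp10 and Mmp20 were not well above background on any array, and Mmp1b on 1.

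**Figure D4:**
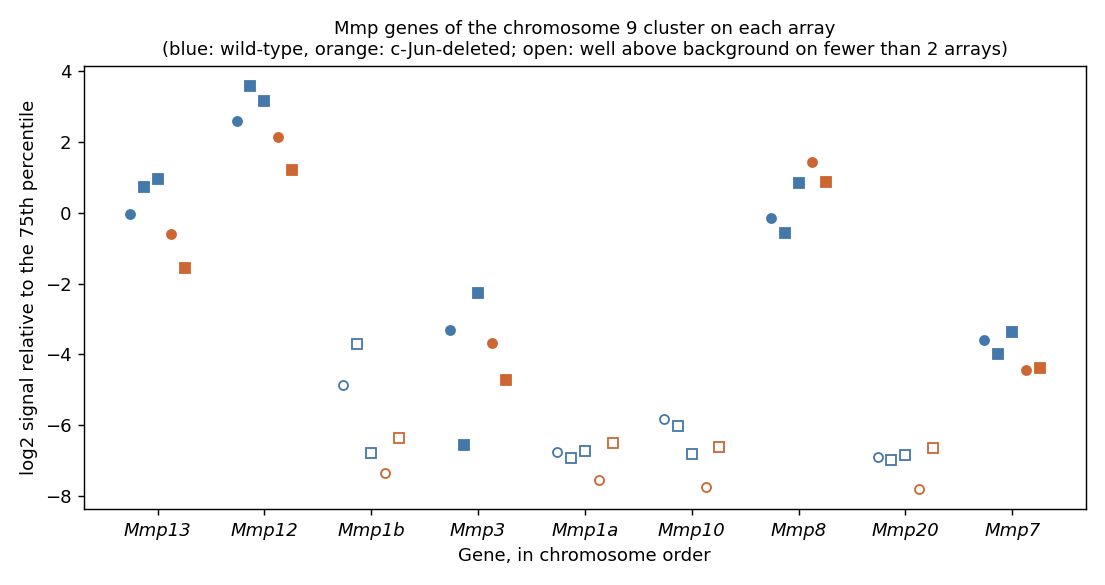
Log2 signal relative to the 75th percentile of the chromosome 9 Mmp genes, in chromosome order, on each array; blue is wild-type and orange c-Jun-deleted, circles are slide 1 and squares slide 2, and open symbols mark genes well above background on fewer than 2 arrays. Orange points lie below the blue ones for Mmp13, Mmp12 and Mmp7 and above them for Mmp8, by 0.01 at the nearest pair; levels of different genes come from different probes and are not comparable.

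The other genes of the family were described through lists, to be read against all genes, of which 61.4% were lower, 20.2% below the wild-type range and 13.3% above it. List medians that moved by over 1.5 times when 1 array was left out are given with that value. None of their genes passed limma's adjusted threshold, and the smallest adjusted p in them was 0.212. Of 17 other metalloproteases 7 were tested, 6 of them lower and 2 below the wild-type range, with a median of -0.34, which was -0.04 without c-Jun-deleted 9, -0.72 without c-Jun-deleted 1, -0.21 without wild-type 5 and -0.59 without wild-type 14. Those below the range were Mmp7 and Mmp11 (-0.54). Mmp23 (-0.38, well above background on 3 of 5 arrays) and the gelatinase Mmp2, which Mmp14 activates (-0.34), overlapped. Of 8 other inhibitors 3 were tested, all lower, with a median of -0.47, or -0.94 if wild-type 11 and -0.74 if c-Jun-deleted 1 is left out. Timp3, the TIMP that stays bound in the matrix and also inhibits Adam17, was at -2.52, -1.09 and -1.93 in the wild-type samples, against -3.25 and -3.47 in the c-Jun-deleted ones (difference -1.52, SE 0.45, adjusted p = 0.326). Reck, a membrane-anchored inhibitor, differed by -0.47 and was below the range, and Timp4, well above background on 3 of 5 arrays, differed by -0.47 and overlapped.

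Other ADAM genes did not share one direction. Of 9 tested, 6 were lower and 3 higher, with 1 below and 2 above the wild-type range and a median of -0.24. That median was -0.01 without c-Jun-deleted 9, -0.08 without wild-type 11 and -0.14 without wild-type 5. Adam19 was at 0.36, 1.13 and 0.14 in the wild-type samples, against 1.46 and 2.19 in the c-Jun-deleted ones (difference 1.28, SE 0.40, limma adjusted p = 0.344). Adam11, which lacks protease activity, differed by 0.84 (adjusted p = 0.237). Adam10, the other main sheddase of the cell surface, was at 4.19, 3.93 and 4.17 against 3.89 and 3.79, a difference of -0.26 and the one below the range, and Adam9 differed by -0.62 with overlapping groups. Of 19 ADAMTS proteases 7 were tested, with 2 below and 1 above the range and a median of 0.06, which ran from -0.09 when c-Jun-deleted 9 is left out to 0.38 when the other is, with 0.12, -0.02 and 0.01 when wild-type 5, 11 or 14 is. Adamts6, the gene above the range, was well above background on 2 c-Jun-deleted and 0 wild-type arrays. It passed the filter only through the group where it is high, so its direction follows from the filter. The bound on its fold is 1.84. Adamts5 (-0.57) was below the range and Adamts8 (-0.40) overlapped, both well above background on 4 of 5 arrays. Adamts18 was well above background on 2 of 5 arrays, so its size of difference is uncertain.

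Partners and substrates of Adam17 were measured as well. Rhbdf2, the iRhom that carries Adam17 to the surface of macrophages, was at 2.81, 2.85 and 3.10 in the wild-type samples, against 2.89 and 2.63 in the c-Jun-deleted ones, with overlapping groups. Its paralog Rhbdf1 was at 0.93, -0.24 and 0.29 against 1.15 and 1.83 (difference 1.16, SE 0.42, limma adjusted p = 0.393). Furin, which removes the propeptide of Adam17 and Mmp14, differed by -0.45 and Frmd8, which stabilises the iRhom complex, by -0.16, both below the range. The list of 7 tested partners and convertases had 2 below and 1 above the range and a median of -0.16, which turned to 0.07 with median centring and was -0.03 without wild-type 11 or c-Jun-deleted 9 and -0.07 without wild-type 14.

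Of 18 tested substrates of Adam17, 13 were lower, 10 below the range and 1 above it, with a median of -0.43. Hbegf, a growth factor shed by Adam17, was at -0.93, 0.22 and -0.32 in the wild-type samples, against -1.48 and -2.22 in the c-Jun-deleted ones (difference -1.51, SE 0.42, adjusted p = 0.310). The hyaluronan receptor gene Cd44 differed by -0.84 and Mertk, a receptor for the uptake of dying cells, by -0.55, both below the range. Lag3, known from lymphocytes, was above it (1.76, adjusted p = 0.224). All 14 tested B cell markers were above the range as well. Their summed level was 52.3 to 101 in wild-type and 340 to 494 in c-Jun-deleted samples, and their part in the Lag3 value was not tested.

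Of 15 genes of metalloprotease activation and surface binding, 6 were below the range and 0 above it, with a median of -0.30. Plg, 1 of the 6, was well above background on 2 wild-type and 0 c-Jun-deleted arrays. It passed the filter only through the group where it is high, so its place below the range follows from the filter. The median was -0.19 without c-Jun-deleted 9 and -0.08 with median centring. Cd44 is in this list too. Lcn2, which forms a complex with Mmp9, was at -0.40, -0.16 and 0.47 against -0.83 and -1.29 (difference -1.03, SE 0.33, limma adjusted p = 0.351). The integrin gene Itgav differed by -0.55 and Plat, the tissue plasminogen activator, by -1.76, with 4 of 5 arrays well above background. Matrix proteins cut by these enzymes had a median of -0.88 over 10 genes, with 3 below and 1 above the range, and this median was -1.44 without wild-type 5 and -0.49 without wild-type 14. The basement membrane collagens Col4a1 (-1.43) and Col4a2 (-1.22) and the laminin gene Lamb1 (-1.29, well above background on 3 of 5 arrays) were below it. Nid1, which encodes nidogen, was above it (2.29, SE 0.28, adjusted p = 0.212).

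Among 21 transcription factors known from metalloprotease promoters 17 were lower, 6 below the range and 2 above it, near the shares of all genes below and above it, with a median of -0.45. That median was -0.28 without wild-type 14 and likewise without c-Jun-deleted 9. Jun differed by -0.64 (SE 0.23, limma adjusted p = 0.391) and its relative Junb by -0.48, both below the range. Fos, the usual partner of Jun, was at 1.67, 0.70 and 2.02 against 0.73 and -0.04 and overlapped (difference -1.12, SE 0.48). Jund was above the range (0.54), as was Ets1, at -0.05, 0.49 and -0.99 against 1.85 and 2.27 (difference 2.24, SE 0.48, adjusted p = 0.242), a factor also strong in lymphocytes. Spi1, the macrophage factor PU.1, differed by -0.49 and was below the range.

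**Figure D5:**
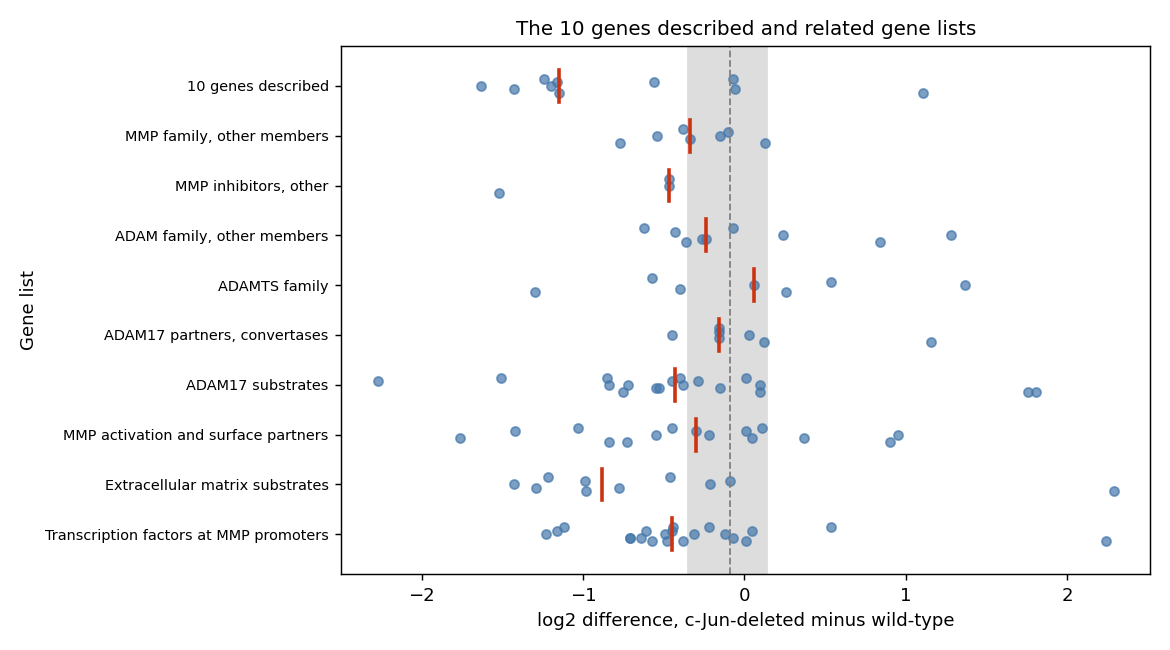
Log2 difference, c-Jun-deleted minus wild-type, of each tested gene (points) in the 10 genes described and in 9 related lists, with the median of each list as a red bar; the grey band holds the interquartile range of all genes and the dashed line their median of -0.09. The bar of the 10 genes is at -1.15, and those of the lists lie between -0.88 and 0.06; points are offset vertically only for legibility.

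Marker genes of several cell types were counted in the same way. Of all genes 61.4% were lower, 20.2% below the wild-type range and 13.3% above it. In RNA of whole dishes, fewer cells of a type and less RNA per cell cannot be told apart. Of 10 general macrophage markers 5 were below the wild-type range and 2 above it, with a median of -0.52 and a summed level of 1240 to 1660 in wild-type and 954 to 1090 in c-Jun-deleted samples, a sum that includes the low Lyz2 of c-Jun-deleted 1. Mrc1 (-1.80), Mertk (-0.55) and the receptor gene Csf1r (-0.40) were below the range. The 3 higher ones were Itgam (0.78) and Cd68 (0.23), both above the range, and Adgre1 (0.16), which overlapped. All 10 were well above background on every array. Of 13 tested markers of large resident macrophages 6 were above the range and 0 below it, with a median of 0.99. The summed level of all 14 on the array was 274 to 670 against 649 to 702. The 274 is wild-type 11, and wild-type 5 and 14 were at 670 and 627. The sum includes Cxcl13, which was not tested and was at 8.00, 2.83 and 7.95 against 7.58 and 6.66. Cxcl13 was the brightest of them on wild-type 5 and 14, so the sum does not describe the 13 tested markers alone. Of 12 markers of monocyte-derived, small macrophages and dendritic cells 4 were below and 1 above, with a median of -0.43 and a summed level of 476 to 692 against 423 to 443.

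Wild-type 11 stood apart in several of these markers. The resident macrophage genes Gata6 and Timd4 were at -1.07 and 1.47 there, against lowest values of 1.29 and 4.11 on the other 4 arrays, and the monocyte receptor gene Ccr2 was at 3.14, against at most 0.58. Its T and NK cell sum of 47.8 and its mesothelial and stromal sum of 12.4 were the highest of the wild-type arrays. Without wild-type 11 the median of the 10 genes was -1.29.

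Red cell genes showed the largest median among the marker lists. Of 7 tested, 5, all of them globin genes, were above the range and 2 below it, with a median of 4.14 and a summed level of 0.716 to 1.54 in wild-type and 10.8 to 23.1 in c-Jun-deleted samples. Hba-a2 was at 0.04, -0.47 and -1.32 against 3.00 and 4.12 (limma adjusted p = 0.215). All 14 B cell markers were above the range, with a median of 2.49. Their sums were 52.3 to 101 in wild-type and 340 to 494 in c-Jun-deleted samples. Of 14 T and NK cell markers 10 were higher and 2 above the range, near the share of 13.3% of all genes. Their median was 0.62, with sums of 17.8 to 47.8 in wild-type and 56.7 to 76.7 in c-Jun-deleted samples. The separation of these sums rests on Cd2, the brightest of the markers in both c-Jun-deleted samples. Cd2 was at 3.46, 3.31 and 2.50 against 5.06 and 5.44. Apart from Cd2 and Tcf7 the groups overlapped for every T and NK cell marker. All 9 tested mast cell markers were higher, 0 of them above the range, with a median of 0.50 and sums of 41.9 to 123 against 94.0 to 100. Of 5 eosinophil markers 4 were lower, 0 below and 0 above the range, with sums of 2.78 to 9.16 against 3.92 to 5.53. The part of these cells in the values of the 10 genes was not tested.

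Mesothelial and stromal cells, which also make Mmp14 and TIMPs, left lower traces in c-Jun-deleted samples. Of 12 tested markers all were lower and 7 below the range, against 61.4% and 20.2% of all genes. The markers had a median of -1.03. The summed level of all 19 markers was 5.34 to 12.4 in wild-type and 3.58 to 5.02 in c-Jun-deleted samples. Wt1 differed by -1.47, Igfbp6 by -1.12 and Sparc by -1.14. Pdgfra, Lrrn4, Igfbp5, Lum and Bnc1 were not well above background on any array. The part of these cell types in the lower metalloprotease and Timp1 values was not tested.

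The genes that ran most like the most variable ones were found by the smallest root mean square difference over the 5 arrays after removing each gene's mean. For Mmp9 they were Nrg1 (0.133), Fam167b (0.168) and Tnfsf14 (0.229), and for Mmp13 they were Rnd1 (0.147), Aoah (0.161) and Dst (0.166). For Mmp14 they were Ptgs2, which encodes Cox-2 (0.083), Gm14246 (0.120) and Il1a (0.128). Ptgs2 was at 0.15, 0.03 and 1.11 in the wild-type samples, against -0.29 and -1.46 in the c-Jun-deleted ones, with the same highest and the same lowest array as Mmp14. With 5 arrays and 14641 named genes to choose from, close matches are easily found, and no test was made.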

How the data were processed

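Per the file headers, the authors' scanner files were written by Feature Extraction 11.5.1.1 and hold background-subtracted spot intensity that is not scaled between arrays. The deposited files also hold an other kind of value, 0 or 1 flags, used here to filter spots. The authors' deposited table holds log2 group means, shifted to the 75th percentile per its file name. Its baseline is unknown, its column medians are 0.54 (wild-type) and 1.19 (c-Jun-deleted), and its header names 4 wild-type arrays, 1 of them not used here. Its column differences lay within 0.001 of those computed here for 1692 of 1709 probes.

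Log2 of the processed signal minus log2 of each array's 75th percentile over non-control spots was used. Control and outlier-flagged spots were dropped, spots of a probe averaged, and probes kept if well above background on at least 2 of 5 arrays. The fit used 27938 genes, each by its brightest probe. Probes were named by transcript accession with the RefSeq table of GRCm38.p6 (28026 named, 27655 not). Arrays were designed on mm9, so only promoter windows carry coordinates.

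The comparison used limma 3.58.1 under R 4.3.3 (2-sided, no covariate, Benjamini-Hochberg over all genes), tested on simulated data. The number of arrays limits precision, and an exact permutation test of 3 against 2 cannot go below 0.1, so none was run. The labels speak of numbered mice; if samples are not separate animals, p-values measure only the spread between samples. Alternatives were other background corrections, scalings, filters and probe rules, the slide as a block, each array left out, array weights and a robust prior. All 10 genes are named; of a list, the 4 genes (of markers 3) with the smallest p, beside Jun, Fos and Junb. Genes of the chromosome 9 cluster, markers named for their background flags, for higher values among neutrophil or macrophage genes or for wild-type 11, Plg, and Lag3's B cell markers were added after values were seen. Plaur, Cxcl13 and Csf3r were added likewise. The 10 genes and the lists were chosen with earlier results of these data known. Proteins were not analysed here.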

Additional observations from a re-analysis of the deposited data

How the results depend on the processing

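Under 17 alternatives to the values above, Mmp8 stayed higher and Mmp9, Mmp12, Mmp13, Mmp14, Mmp19, Timp1 and Adam17 stayed lower, and where a test could be run 0 of the 10 genes passed limma's adjusted threshold. The lowest adjusted p of any of them was 0.179, for Mmp13 with normexp. Timp2 turned positive with quantile normalization (0.10), median centring (0.15), the mean of its probes (0.04), within slide 2 (0.19), and without wild-type 5 (0.11) or c-Jun-deleted 1 (0.01), and was at -0.17 without wild-type 11. Adam8 did so with quantile normalization (0.12) and median centring (0.16), and without wild-type 5 (0.08) or c-Jun-deleted 9 (0.26), and was at -0.37 without c-Jun-deleted 1; the cause was not tested. Genes below the wild-type range numbered 2 with median centring and 6 or 7 with 1 array left out. Over all genes 0 passed, but 232 with median centring and 1 with array weights, and lower genes made up 53.7% of unadjusted calls, 38.0% with quantile normalization and 20.4% with median centring. The median of the 10 genes was between -1.76 (without c-Jun-deleted 1) and -0.48 (within slide 1). No paired analysis was possible because the groups share no replicate numbers. All 10 genes were above background. On simulated data of this comparison, with 200 of 27938 genes changed, limma recovered 39% of changes of 2 on the log2 scale and 68% of changes of 4. The largest difference of the 10 genes was -1.63, and changes of that size or smaller were not simulated. At the same spread they are recovered less often than changes of 2, and by how much is unknown.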

Other observations

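Genes whose promoter window holds the AP-1 letters were counted across the array, a list made after the values of the 10 genes were known. Of 576 tested genes with a match 64.9% had a lower mean in c-Jun-deleted samples, 22.2% lay below the wild-type range and 15.3% above it, with a median difference of -0.13. Of 11116 tested genes with a window and no match these were 61.5%, 20.3%, 13.6% and -0.08. The 2 sets differed little, and no test of the difference was made.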
